A study of Mus musculus with 8 samples.

Results

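Guanylate-binding proteins were represented by 8 genes, Gbp2, Gbp3, Gbp4, Gbp5, Gbp6, Gbp7, Gbp8 and Gbp9, taken by symbol from the 27405 genes listed in 4 droplet single-cell libraries, and all 8 were listed in every library. The libraries held CD45+ cells sorted by flow cytometry from tumours grown in wild-type mice from MC38, a colon carcinoma line of mouse origin. The treated group, LNP-Sirpa, had 2 libraries and the control group 2, all with the same batch label, and the series title describes the treatment as degradation of SIRPα, an inhibitory receptor of phagocytes. What was given to the controls, the age of the mice and whether replicates were separate animals are not in the labels. Each p-value therefore reflects spread between libraries, estimated in part over all genes together, and that spread could be technical.

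Guanylate-binding proteins are large GTPases of the dynamin superfamily, and their genes are among those most strongly induced by interferons, above all interferon gamma. In mouse macrophages they assemble on vacuoles that hold microbes and on bacteria in the cytosol, where they help to rupture the vacuole and to activate inflammasomes, the complexes that switch on inflammatory caspases. In tumours, their transcripts are commonly read as a sign of interferon exposure, since macrophages, dendritic cells, lymphocytes and stromal cells can all induce them. The genes lie in 2 clusters in the RefSeq GRCm38.p6 annotation: chromosome 3 has, in order, Gbp5, Gbp7, Gbp3, Gbp2b and Gbp2, and chromosome 5 has Gbp8, Gbp9, Gbp4, Gbp10, Gbp6 and Gbp11.

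RefSeq start-site windows were at hand for 4 of the 8 members, all in the chromosome 3 cluster. They are shown because the letters of the best-known interferon response sequences can be read directly in them. Each window runs from 250 bases before to 50 bases after the annotated start on the plus strand of GRCm38.p6, 5′ to 3′. Capitals mark matches to GAAA, 2 further bases and GAAA again (TTTC, 2 bases and TTTC on the other strand), the core of the interferon-stimulated response element, and to TTCNNNGAA, the core of the gamma-activated site, which reads the same on both strands.
Gbp5 (chr3:142496684-142496983): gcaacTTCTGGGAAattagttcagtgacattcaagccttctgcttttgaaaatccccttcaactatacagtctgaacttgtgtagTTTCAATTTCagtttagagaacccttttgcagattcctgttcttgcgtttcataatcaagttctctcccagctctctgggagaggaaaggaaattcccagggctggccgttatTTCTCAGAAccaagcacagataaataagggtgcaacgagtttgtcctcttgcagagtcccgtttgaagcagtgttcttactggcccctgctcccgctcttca
Gbp7 (chr3:142530086-142530385): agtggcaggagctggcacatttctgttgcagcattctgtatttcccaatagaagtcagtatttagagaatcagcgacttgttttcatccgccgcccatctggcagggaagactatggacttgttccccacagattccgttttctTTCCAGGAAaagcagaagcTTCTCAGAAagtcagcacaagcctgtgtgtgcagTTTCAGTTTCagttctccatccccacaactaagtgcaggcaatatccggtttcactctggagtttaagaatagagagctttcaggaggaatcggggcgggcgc
Gbp3 (chr3:142559794-142560093): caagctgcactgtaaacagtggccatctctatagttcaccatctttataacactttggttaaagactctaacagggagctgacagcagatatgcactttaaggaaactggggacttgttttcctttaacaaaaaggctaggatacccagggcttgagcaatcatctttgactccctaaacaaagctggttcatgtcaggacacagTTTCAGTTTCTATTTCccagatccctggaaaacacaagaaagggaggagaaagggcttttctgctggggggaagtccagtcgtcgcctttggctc
Gbp2 (chr3:142620413-142620712): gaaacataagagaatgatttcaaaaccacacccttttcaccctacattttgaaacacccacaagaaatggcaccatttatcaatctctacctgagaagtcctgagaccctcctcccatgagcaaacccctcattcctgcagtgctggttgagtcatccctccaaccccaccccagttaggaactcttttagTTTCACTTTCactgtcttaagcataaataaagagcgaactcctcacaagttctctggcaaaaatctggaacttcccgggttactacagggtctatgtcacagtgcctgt
The Gbp5 window held the response-element core 165 bases before the start and the gamma-activated core 245 and 52 bases before it. In the Gbp7 window the response-element core began 53 bases before the start, and the gamma-activated core 106 and 87 bases before it. Gbp3 had 2 overlapping response-element cores, 45 and 39 bases before the start, and Gbp2 had 1, 59 bases before it. Over all 32851 windows of this length, 3.44% held the response-element core, 8.30% the gamma-activated core and 0.454% both. A further Gbp3 start listed by RefSeq had neither core. These matches describe letters in the windows; binding was not measured.

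The libraries held 70581678 to 85810250 unique molecular identifiers (UMIs, 1 for each captured transcript) in the LNP-Sirpa group and 68654004 to 90789729 in the control group, over 9008 to 10348 and 7511 to 10890 barcodes. Barcode names are serial and 830 to 1242 of them recurred between any 2 libraries, so they identify no shared cell. Cells were assigned to classes by minimum UMIs of marker genes, which left 14768 of 37717 cells without a class. The share was larger in the treated group: 4999 of 10332 and 3559 of 9005 cells in LNP-Sirpa replicates 1 and 2. In control replicates 1 and 2 it was 2572 of 7504 and 3638 of 10876 cells. Of all cells, 3162 reached both the phagocyte and the T cell minimum, and such mixed cells were kept out of both classes. Levels are CPM, the UMIs of a gene per 1e+06 UMIs of the class in that library, and were compared only between libraries or classes of the same gene. Sirpa RNA in phagocytes stood at 481 and 343 CPM in LNP-Sirpa replicates 1 and 2, against 555 and 554 CPM in control replicates 1 and 2 (edgeR log2 −0.30 ± 0.20 SE, adjusted p = 0.462).

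Tumour phagocytes, gated on macrophage and monocyte genes that include Csf1r, Adgre1, Cd68 and Ms4a7, carried more RNA of 7 of the 8 members in both LNP-Sirpa libraries than in either control library. The summed level of the 8 genes was 1306 and 768 CPM in LNP-Sirpa replicates 1 and 2, against 284 and 496 CPM in control replicates 1 and 2, and the ratio of group means was 2.66. Over all 15482 genes tested in these cells, 15.5% had both LNP-Sirpa libraries above both controls. None of the 8 members passed edgeR's quasi-likelihood test at an adjusted p of 0.05, which called 1.07% of genes higher and 0.316% lower. An unadjusted p under 0.05 was reached by 7 members and by 19.45% of all genes, and the median log2 change was 1.61 over the members and −0.01 over all genes. The gated cells numbered 3204 and 4266 in the LNP-Sirpa libraries and 4242 and 6188 in the control libraries, with median depths of 7164.5 to 8628.5 UMIs.

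Gbp2, a prenylated member that targets vacuoles and bacteria, had 534 and 362 CPM in the LNP-Sirpa phagocytes, against 86.4 and 166 CPM in the control phagocytes. Group means were 448 ± 121 and 126 ± 56.0 CPM (SD, n = 2 libraries each), and the lower LNP-Sirpa library lay well above the higher control. Its edgeR change was log2 1.94 ± 0.36 (SE, adjusted p = 0.0670). Gbp5, which is also prenylated and has been tied to the NLRP3 inflammasome, had 78.3 and 56.6 CPM in LNP-Sirpa libraries, against 10.9 and 25.04 CPM in controls (edgeR log2 2.01 ± 0.43 SE, adjusted p = 0.0946). Gbp4 had 96.1 and 50.9 CPM in LNP-Sirpa libraries, against 13.1 and 23.6 CPM in controls, the highest ratio of means among the members at 4.01 (edgeR log2 2.10 ± 0.39 SE, adjusted p = 0.0727). For all 3 genes the groups stood apart.

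Gbp6, one of the members that gather on Toxoplasma vacuoles, had 60.1 and 36.1 CPM in LNP-Sirpa phagocytes, against 10.3 and 21.2 CPM in controls. Gbp8 had 101 and 58.2 CPM in LNP-Sirpa libraries, against 20.35 and 39.55 CPM in controls. Gbp9 and Gbp3, which also reach Toxoplasma vacuoles, showed smaller ratios of means, 2.16 and 1.95. LNP-Sirpa replicate 2 and control replicate 2 came close for both: Gbp9 stood at 18.6 and 14.1 CPM and Gbp3 at 41.3 and 35.8 CPM in these libraries. Gbp7, which restricts Toxoplasma in mice, was the exception: at 335 and 144 CPM in LNP-Sirpa libraries, against 112 and 171 CPM in controls, its groups overlapped. The edgeR changes of these 5 genes ran from log2 0.85 ± 0.39 SE for Gbp7 (adjusted p = 0.313) to 1.71 ± 0.41 SE for Gbp6 (adjusted p = 0.114).

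**Figure D1:**
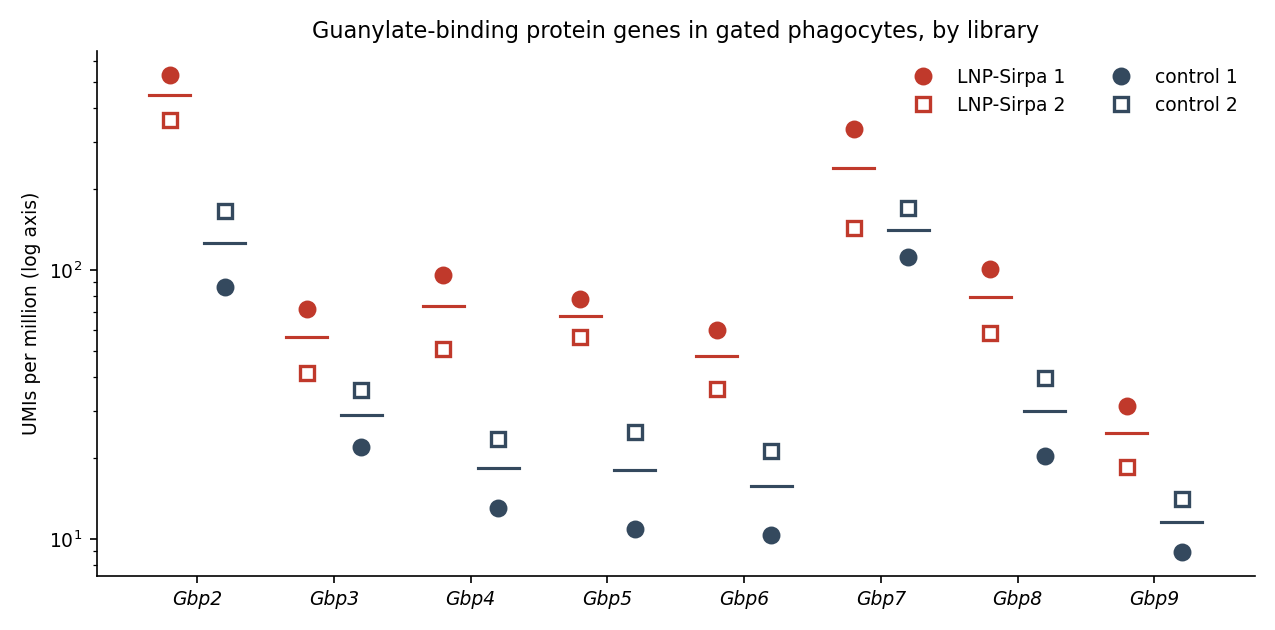
Level of each member in gated phagocytes, in CPM on a log axis, with 1 point per library (LNP-Sirpa red, control dark blue-grey; replicate 1 filled circle, replicate 2 open square) and lines at group means. In 7 of 8 genes both red points lie above both control points, and Gbp7 overlaps; replicate 1 is the higher LNP-Sirpa library and the lower control library for every gene.

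The same pair of libraries set the extremes throughout. For all 8 members LNP-Sirpa replicate 1 exceeded replicate 2, by 1.39 to 2.33 times, and control replicate 2 exceeded replicate 1, by 1.52 to 2.29 times. With control replicate 2 left out, 5 of 8 members passed edgeR's test (Gbp2, Gbp4, Gbp5, Gbp6 and Gbp8; 0.458% of genes called higher), and the members' median was log2 2.25; without control replicate 1 none passed and the median was 1.17. DESeq2 called 7 of 8 higher, leaving out Gbp7, where it called 5.88% of all genes higher. With no filter on low counts edgeR called all 8, against 5.49% of genes.

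In the gated phagocytes, monocyte genes, which belong to this class, and some markers of other cells were higher with the treatment. Markers of B cells (2.41 and 1.72 CPM in LNP-Sirpa libraries, against 5.84 and 6.89 CPM in controls) were lower. So were those of platelets (1177 and 1195, against 1988 and 1643 CPM) and fibroblasts (23.8 and 8.33, against 30.4 and 26.9 CPM). The platelet genes, Pf4 and Ppbp, reached at most 553 CPM in the other tested immune classes. In phagocytes this list therefore does not single out RNA of platelets. The part of all these genes in the result was not tested. The 4 monocyte genes summed to 895 and 494 CPM in LNP-Sirpa libraries, against 269 and 204 CPM in controls; the 5 T cell genes to 52.7 and 31.2, against 14.01 and 26.9 CPM; and the 6 neutrophil genes to 128 and 61.5, against 25.5 and 33.3 CPM. In phagocytes with high C1q RNA, a macrophage product, the member sum was 1358 and 808 CPM in LNP-Sirpa, against 297 and 501 CPM in controls, a ratio of 2.71. In phagocytes with low C1q it was 1127 and 626 CPM, against 196 and 422 CPM, a ratio of 2.83. Phagocytes with at least 5 UMIs of Cxcl9, an interferon gamma target that recruits T cells, numbered 1729 and 2039 in LNP-Sirpa libraries, against 255 and 1353 in controls. Within these cells the member sum was 1511 and 976 CPM, against 744 and 818 CPM, a ratio of 1.59.

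More phagocytes held the transcripts, and cells that held Gbp2 held more copies of it. With every cell thinned to 2000 UMIs, a Gbp2 UMI was found in 50.2% and 39.3% of phagocytes of LNP-Sirpa replicates 1 and 2, against 11.1% and 20.8% in control replicates 1 and 2, and no 95% Wilson interval of one group reached the other's. Before thinning these shares were 76.6% and 69.9%, against 27.2% and 41.8%, and a positive cell held 5.69 and 4.87 Gbp2 UMIs on average, against 3.00 and 3.22. In T and NK cells, a thinned Gbp2 UMI was found in 18.9% and 13.2% of cells, against 3.56% and 8.04%. Gbp4 in phagocytes followed, with 15.8% and 9.31% of thinned cells in LNP-Sirpa, against 2.15% and 4.37% in controls. Gbp7 reached 43.8% and 22.9% of cells, against 19.5% and 26.3%, so LNP-Sirpa replicate 2 lay between the controls. At least 1 member was found in 80.7% and 63.5% of thinned phagocytes, against 35.4% and 50.2%, and at least 3 members in 24.2% and 11.4%, against 1.90% and 6.23%. The 10% of cells richest in member UMIs held 32.0% and 39.6% of them in LNP-Sirpa libraries, against 52.1% and 45.7% in controls. Such a share falls as the mean count per cell rises, here 2.66 and 1.55 member UMIs, against 0.584 and 1.06. It therefore does not show how evenly the transcripts were spread over cells. Intervals cover counting error only, and 161 to 405 phagocytes per library with fewer than 2000 UMIs were left out.

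**Figure D2:**
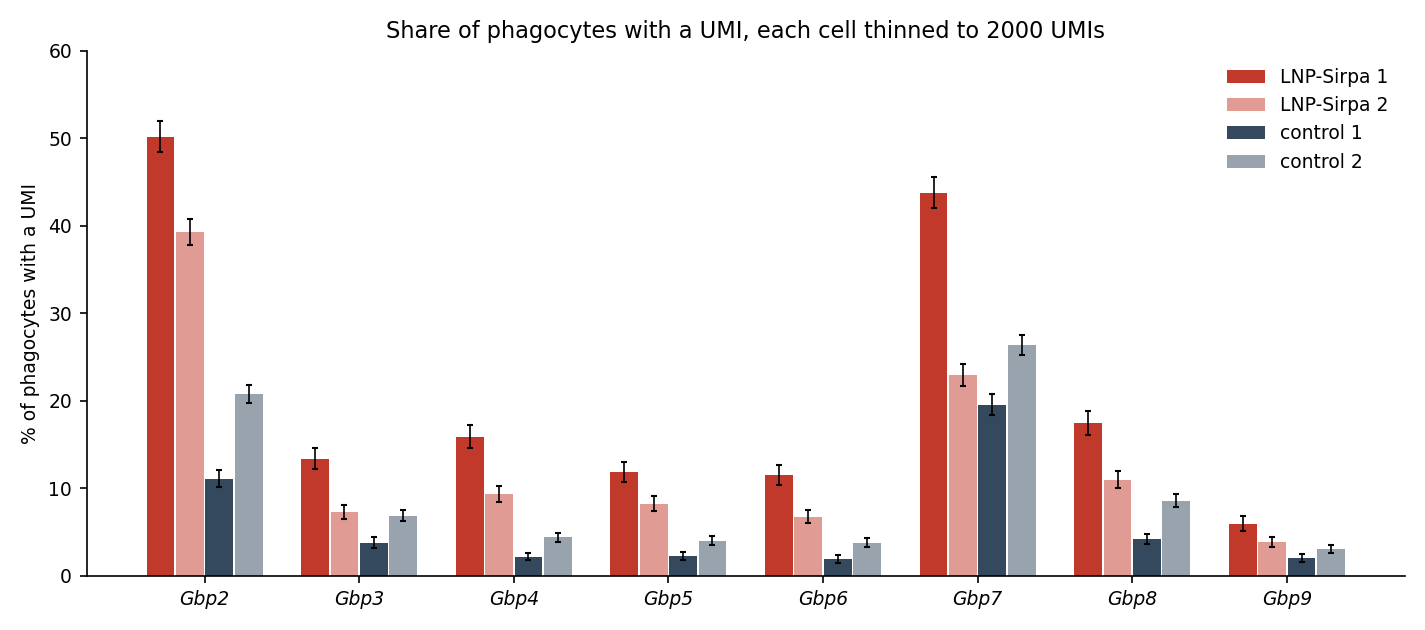
Share of gated phagocytes with at least 1 UMI of each member after thinning each cell to 2000 UMIs, in percent; bars run LNP-Sirpa replicates 1 and 2 and then control replicates 1 and 2, with 95% Wilson intervals for counting error. Gbp2 spans 11.1% to 50.2% over the libraries, and Gbp7 is the member whose LNP-Sirpa replicate 2 bar is below a control bar.

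Dendritic cells, which carry antigen to T cells, showed every member higher in both LNP-Sirpa libraries than in either control, as did 20.9% of the 7946 genes tested there. That share is no yardstick for Gbp6, which passed the filter on low counts through the LNP-Sirpa libraries, where it was high. The smaller LNP-Sirpa library held 47 of these cells, against 120 in the smaller control. Gbp2 had 374 and 264 CPM in LNP-Sirpa replicates 1 and 2, against 87.6 and 77.1 CPM in control replicates 1 and 2, and was the member that passed (edgeR log2 1.90 ± 0.29 SE, adjusted p = 0.0124; 0.277% of genes called higher and 0.0503% lower). Gbp5 had 93.1 and 111 CPM, against 41.65 and 22.5 CPM in controls, again with a clear gap. Gbp6 rested on few counts, 28 and 5 UMIs in LNP-Sirpa libraries and 1 in each control, which is 17.5 and 14.2 CPM, against 1.07 and 0.803 CPM. In the controls that is 10.3% and 3.78% of the phagocyte level, while the C1q genes, which dendritic cells should lack or hold at low levels, stood at 9.88% and 7.87% of theirs. Its edgeR change (log2 3.90 ± 0.84 SE, adjusted p = 0.0887) rests on those control UMIs, and a gap between groups was close to fixed by the filter for Gbp6. Members other than Gbp2 and Gbp6 had edgeR changes of log2 1.08 to 1.64 with adjusted p of 0.114 to 0.534. Mature dendritic cells carrying Ccr7 and Fscn1 held Gbp2 at 556 and 318 CPM, against 101 and 108 CPM, and type 1 dendritic cells carrying Xcr1 and Clec9a at 107 and 60.9 CPM, against 57.5 and 48.3 CPM, where 60.9 CPM rests on 3 UMIs in 4 cells. Some markers of other cells were also higher in the LNP-Sirpa dendritic cells. The 4 monocyte genes summed to 309 and 262 CPM, against 60.9 and 85.1 CPM. The 6 neutrophil genes summed to 119.9 and 19.9 CPM, against 8.54 and 8.03 CPM, and the 5 T cell genes to 54.4 and 31.3 CPM, against 17.1 and 24.1 CPM. Others were lower: the 5 phagocyte genes summed to 177 and 179 CPM, against 222 and 210 CPM. The C1q genes stood at 913 and 1081 CPM, against 1232 and 1117 CPM. The platelet genes, which were highest in phagocytes, stood at 96.8 and 56.9 CPM, against 190 and 131 CPM. The part of these markers in the result was not tested. Taken alone, mature cells gave Gbp2 an edgeR adjusted p of 0.0505, and leaving out control replicate 1 or 2 gave 0.112 or 0.155.

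Neutrophils had Gbp2 higher in both LNP-Sirpa libraries, against few control cells. They numbered 202 and 116 in the LNP-Sirpa libraries and 20 and 24 in the control libraries, with 41591 to 48074 UMIs behind each control sum. Gbp2 had 439 and 144 UMIs in LNP-Sirpa neutrophils, which is 883 and 587 CPM, against 0 and 3 UMIs in controls, 0 and 72.1 CPM (edgeR log2 4.68 ± 0.74 SE, adjusted p = 0.0410; 0.802% of 2244 genes called higher and 0.0446% lower). Gbp2 entered this test through the LNP-Sirpa libraries, where it was high, and its fold rests on 3 control UMIs: the ratio of pooled levels was 23.5, with an exact 95% interval of counting error from 7.99 to 114. Over the 11 alternatives that left a control UMI its change was log2 3.02 to 5.06. Most of them refit the same few control neutrophils, so they give no independent support. Without control replicate 2 no control UMI remained and no fold is given. Gbp4, Gbp5, Gbp8 and Gbp9 had no UMI in either control library. Against 3 counts over both controls together, the pooled LNP-Sirpa level was at least 2.17-fold higher for Gbp4, 2.66-fold for Gbp5, 2.46-fold for Gbp8 and 1.29-fold for Gbp9. Gbp7 had 322 and 139 CPM, against 83.2 and 72.1 CPM (edgeR log2 1.85 ± 0.68 SE, adjusted p = 0.272). Only 5 of the 8 members (Gbp2, Gbp4, Gbp5, Gbp7 and Gbp8) passed the filter on low counts. Gbp2, Gbp4, Gbp5 and Gbp8 passed it through the LNP-Sirpa libraries, where they were high, so a gap between groups was close to fixed by the filter. Groups stood apart for the 5 tested members and for 17.1% of the tested genes, a share that is no yardstick for such members. Among the untested members they stood apart for Gbp9, which had no control UMI, but not for Gbp3 and Gbp6. The gated cells differed between groups in the markers of the gate itself. The 6 neutrophil genes summed to 150577 and 115983 CPM in LNP-Sirpa libraries, against 68769 and 73574 CPM in controls. The 5 phagocyte genes summed to 527 and 526 CPM, against 707 and 866 CPM. C1q RNA in neutrophils reached 19.7% to 24.1% of the phagocyte level. The 4 monocyte genes summed to 4345 and 3115 CPM in LNP-Sirpa libraries, against 1144 and 216 CPM, above the phagocyte sum of each library. Here too the list does not single out RNA of monocytes, and the part of these genes in the result was not tested. Gbp2 in the LNP-Sirpa neutrophils was above the phagocyte level of the same library.

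T and NK cells had Gbp2 higher in both LNP-Sirpa libraries in each class. CD8 T cells had 91.3 and 67.85 CPM, against 18.5 and 34.4 CPM in controls (edgeR log2 1.42 ± 0.28 SE, adjusted p = 0.0752). Regulatory T cells had 124 and 92.65 CPM, against 19.0 and 55.8 CPM (edgeR log2 1.52 ± 0.35 SE, adjusted p = 0.0668), and NK cells 70.3 and 44.6 CPM, against 16.0 and 34.2 CPM (edgeR log2 1.36 ± 0.36 SE, adjusted p = 0.0277). Gbp2 in NK cells was the 1 member to pass in these classes, where edgeR called 1.07% of genes higher and 0.489% lower in NK cells, 0.0802% and 0.0301% in CD8 T cells and 0.382% and 0.0735% in regulatory T cells. DESeq2 called none of the 8 in any of the 3, and the NK call was lost without control replicate 1 (edgeR log2 0.80, adjusted p = 0.914) and without LNP-Sirpa replicate 1 (0.97, 0.647). Gbp2 in these cells was 12.3% to 33.7% of the phagocyte level of the same library and C1q RNA 6.98% to 14.4%, with Gbp2 above C1q in each class and library. The 6 neutrophil genes moved with the treatment: they summed to 112 and 44.1 CPM, against 2.65 and 9.62 CPM, in CD8 T cells, to 168 and 46.3 CPM, against 29.9 and 9.699 CPM, in regulatory T cells, and to 93.6 and 22.3 CPM, against 7.46 and 4.02 CPM, in NK cells. The 4 monocyte genes summed to 1479 and 1853 CPM, against 1028 and 496 CPM, in CD8 T cells, to 717 and 498 CPM, against 309 and 325 CPM, in regulatory T cells, and to 1218 and 1500.4 CPM, against 1062 and 1093 CPM, in NK cells. In CD8 T and NK cells the monocyte-gene sums were above those of phagocytes in each library (895 and 494 CPM, against 269 and 204 CPM). There the list does not single out RNA of monocytes. The part of the neutrophil and monocyte genes in the result was not tested.

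Among the other members, Gbp6 in NK cells had 24.95 and 22.3 CPM in LNP-Sirpa libraries, against 5.33 and 12.1 CPM in controls (edgeR log2 1.54 ± 0.53 SE, adjusted p = 0.163). These levels rest on 44 and 7 UMIs, against 5 and 6 UMIs. Gbp6 passed the filter on low counts there through the LNP-Sirpa libraries, where it was high, so a gap between groups was close to fixed. Differences between members were not tested. Gbp4 in regulatory T cells had 142 and 91.3 CPM in LNP-Sirpa libraries, against 59.7 and 36.4 CPM in controls (edgeR log2 1.301 ± 0.32 SE, adjusted p = 0.0761). Gbp6 in CD8 T cells had 123 and 52.0 CPM, against 45.0 and 36.95 CPM, so that LNP-Sirpa replicate 1 made most of the difference (edgeR log2 1.14 ± 0.37 SE, adjusted p = 0.383). Gbp7 in regulatory T cells overlapped between groups, at 352 and 216 CPM, against 239 and 230.4 CPM, with LNP-Sirpa replicate 2 below both controls. Groups did not overlap for 3 of 8 members in CD8 T cells, 6 in regulatory T cells and 4 in NK cells, against 20.3%, 18.6% and 21.3% of the genes tested there. Counted here is Gbp9 in regulatory T cells (36.2 and 18.5, against 16.3 and 17.0 CPM), which also passed the filter through the LNP-Sirpa libraries. The shares are no yardstick for it or for Gbp6 in NK cells. At an unadjusted p under 0.05 edgeR listed 2, 4 and 3 members in the CD8 T, regulatory T and NK classes (Gbp6 among those in NK cells), and 8.997%, 7.925% and 9.884% of all genes.

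**Figure D3:**
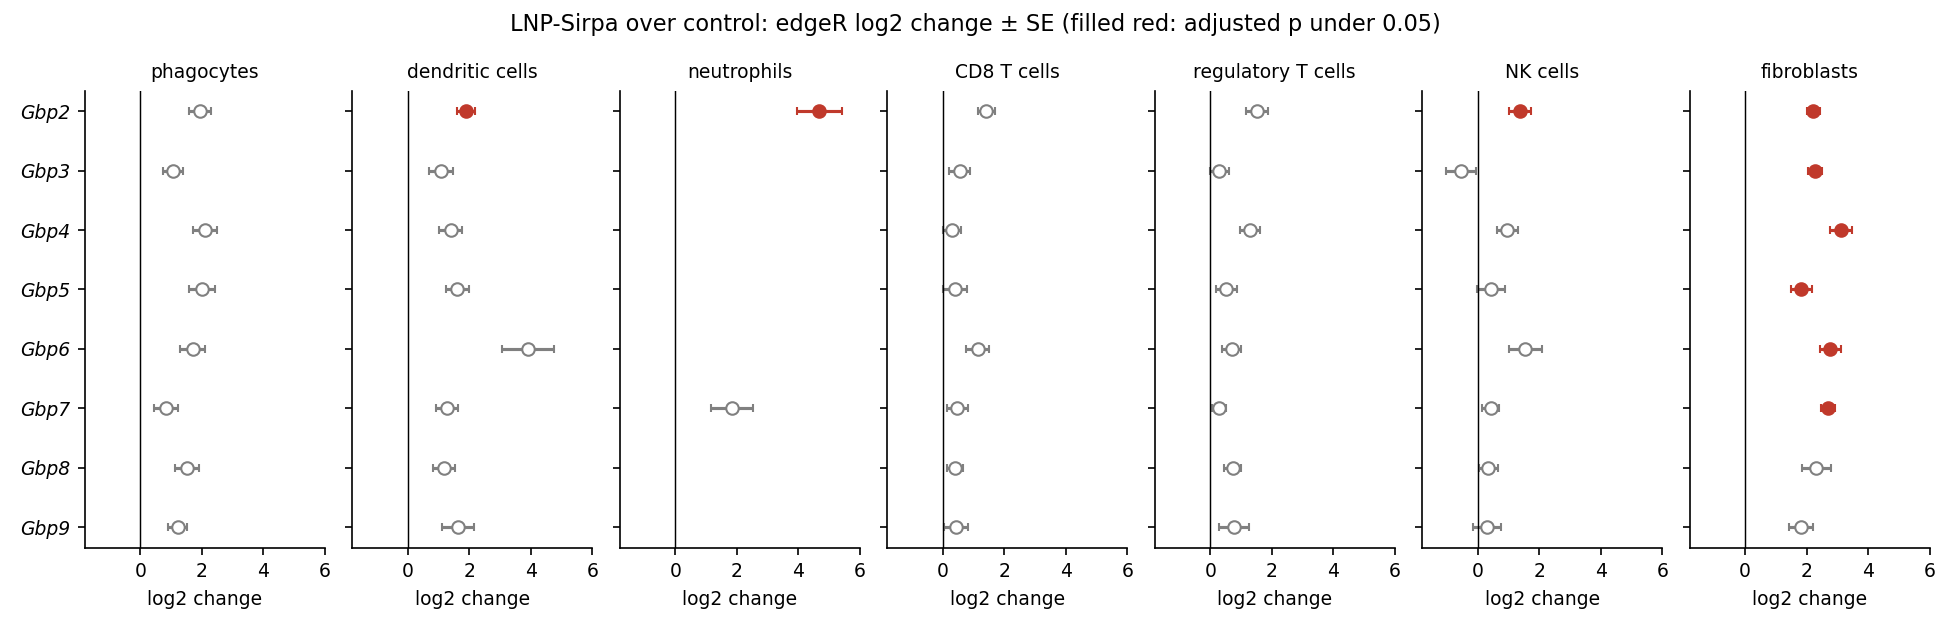
edgeR log2 change of each member, LNP-Sirpa over control, with its SE, in 7 classes; filled red points passed an adjusted p of 0.05, and members that were not tested or had no control UMI are left out. Gbp2 passed in dendritic cells, neutrophils and NK cells, and 6 members passed in cells with fibroblast markers.

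Cells with fibroblast markers (Col1a1, Col1a2, Col3a1 and Dcn), a class added after the data were seen, had 6 of the 8 members past the threshold. They numbered 289 and 133 in the LNP-Sirpa libraries and 222 and 243 in the control libraries, and their Ptprc RNA, which encodes CD45, stood at 32.6 and 19.4 CPM, against 18.8 and 19.4 CPM, compared with 199.7 CPM or more in each library of the 6 tested immune classes. Gbp7 had 288 and 213 CPM in LNP-Sirpa libraries, against 45.1 and 36.75 CPM in controls (edgeR log2 2.70 ± 0.22 SE, adjusted p = 0.00131). Gbp2 had 397.5 and 396 CPM, against 101 and 82.7 CPM (edgeR log2 2.21 ± 0.21 SE, adjusted p = 0.00169), and Gbp4 70.8 and 36.1 CPM, against 7.51 and 5.65 CPM (edgeR log2 3.11 ± 0.35 SE, adjusted p = 0.00368). In each of these the groups lay far apart, and control replicates differed little. Gbp3, Gbp5 and Gbp6 were the other members that rose, against 0.764% of 10866 genes called higher and 0.11% lower; Gbp8 and Gbp9 had edgeR adjusted p of 0.103 and 0.0663. All 8 had both LNP-Sirpa libraries above both controls, as had 13.8% of genes. 5 of the calls held under all 13 alternatives, and Gbp5 was lost under 4 of them, among them leaving out control replicate 1 (adjusted p = 0.101). The 4 fibroblast genes summed to 4703 and 2237 CPM in LNP-Sirpa cells, against 4933 and 4886 CPM, the 4 monocyte genes to 143 and 63.6 CPM, against 34.2 and 33.2 CPM, and the 6 neutrophil genes to 68.0 and 22.1 CPM, against 4.88 and 4.24 CPM; their part in the result was not tested. C1q RNA was 4.46% to 6.77% of the phagocyte level in these cells.

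Whether phagocytes responded more than pooled T and NK cells was tested as an interaction. It is the log2 change in phagocytes minus that in the pool of the same libraries. The make-up of the pool differed between libraries, with CD8 T cells a smaller part of it in control replicate 1. Gbp4 differed between the pooled classes, with control means of 57.6 CPM in CD8 T, 48.0 in regulatory T and 28.1 in NK cells. The part of this make-up in the differences was not tested. Gbp4 passed (edgeR difference 1.31 ± 0.25 SE, adjusted p = 0.0296), 1 of 8 members, against 0.806% of 15010 genes with a positive difference and 0.353% with a negative one. Its level in T and NK cells was 96.3 and 62.6 CPM in LNP-Sirpa libraries, against 42.7 and 45.3 CPM in controls, so the control level was higher in T and NK cells than in phagocytes. The call was lost under 4 of 8 alternatives, among them leaving out LNP-Sirpa replicate 1 (edgeR 1.21, adjusted p = 0.114). Gbp8 came next at 1.04 ± 0.24 SE (edgeR adjusted p = 0.0799), and the other 6 ran from 0.18 for Gbp7 to 1.12 for Gbp5 with adjusted p of 0.395 to 0.890.

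**Figure D4:**
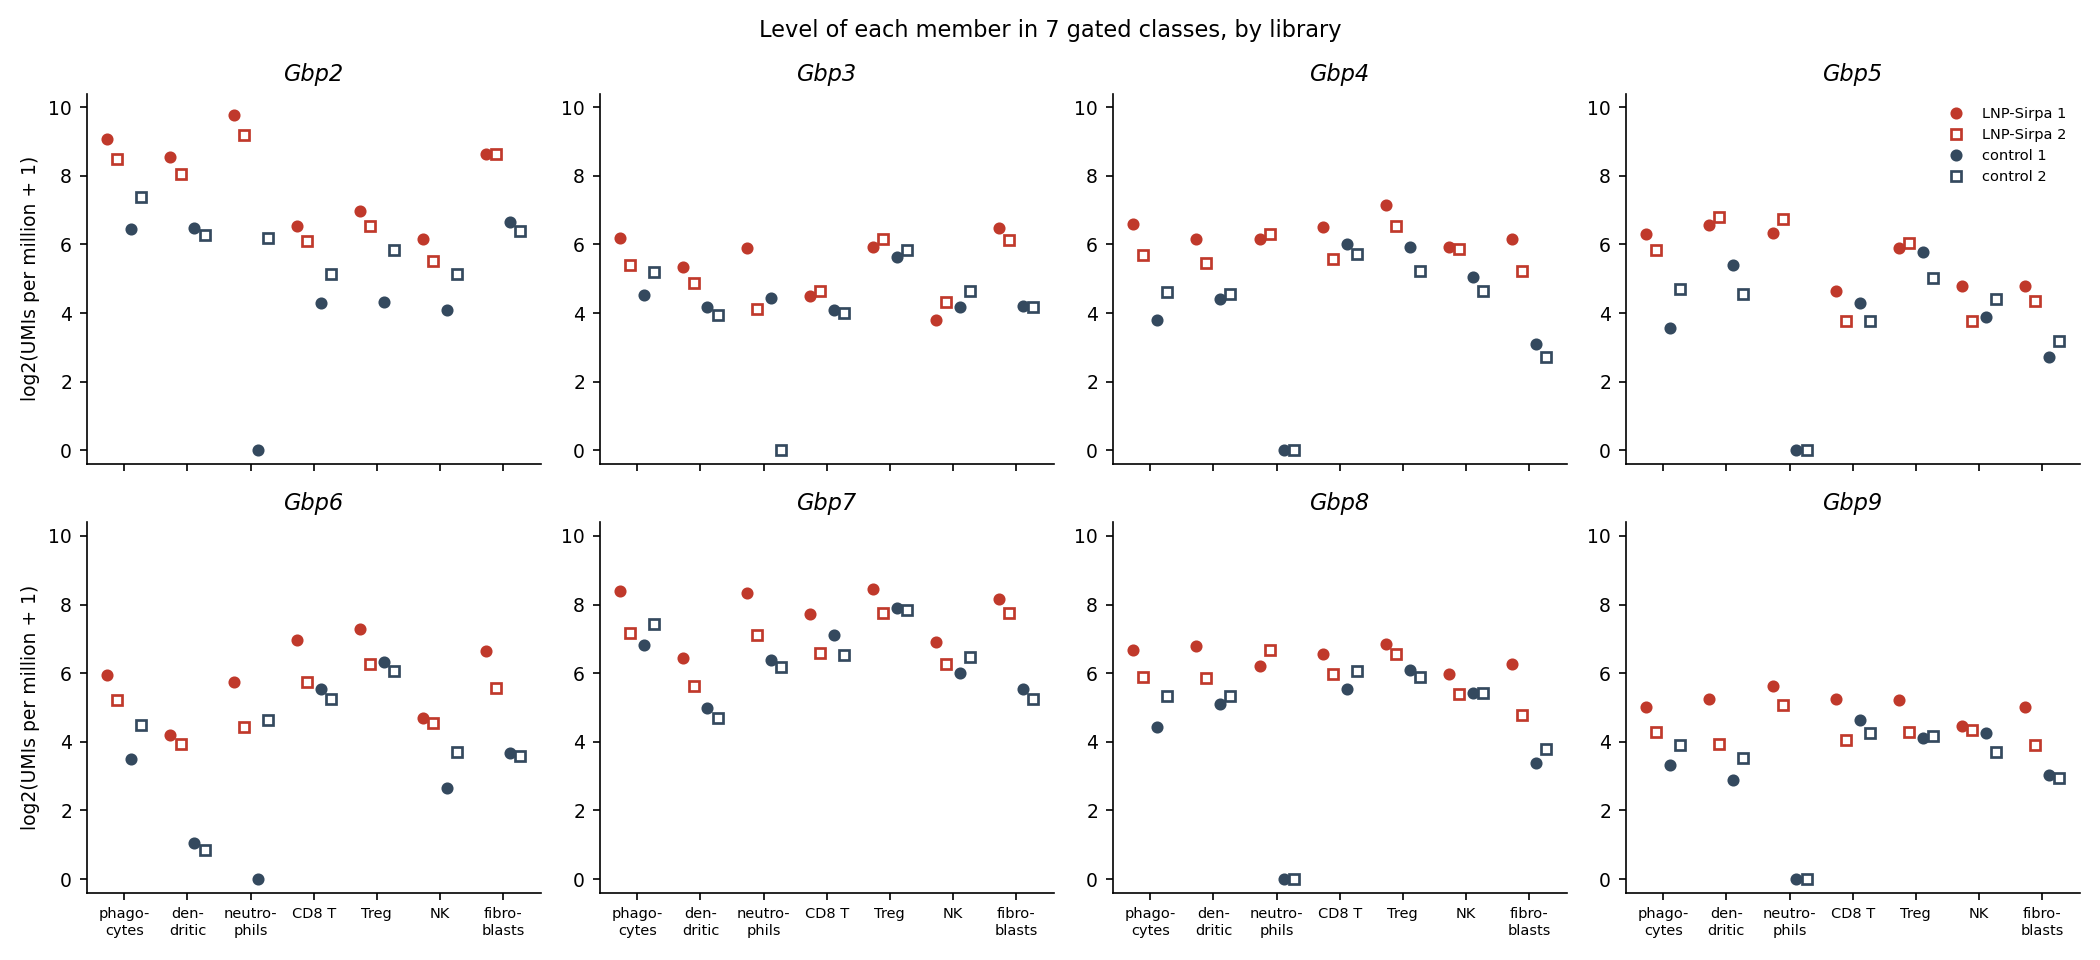
Level of each member in 7 classes as log2(CPM + 1), with 1 point per library (LNP-Sirpa red, control dark blue-grey; replicate 1 filled circle, replicate 2 open square; Treg, regulatory T cells). Points at 0 are libraries without a UMI, all of them control neutrophils.

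The members differed in which cells held them. Among the 6 tested immune classes of the LNP-Sirpa libraries, Gbp2 was highest in neutrophils (735 ± 209 CPM, SD, n = 2), then phagocytes (448 ± 121) and dendritic cells (319 ± 77.6), with regulatory T cells (108 ± 22.4), CD8 T cells (79.6 ± 16.6) and NK cells (57.5 ± 18.2) below. Dendritic and regulatory T cells were the neighbours in this order that lay further apart than their summed SDs. In control libraries the order began with phagocytes (126 ± 56.0) and dendritic cells (82.3 ± 7.40). Set against phagocytes of the same libraries in edgeR, Gbp2 was lower in CD8 T cells (log2 −2.50 ± 0.13 SE, adjusted p = 6.74e-10), in NK cells (−2.71 ± 0.16, 6.13e-59) and in regulatory T cells (−2.25 ± 0.14, 4.70e-16), the last of which did not pass with mixed cells kept in (−1.39, 0.0522). In dendritic cells the difference was small (−0.50 ± 0.16, 0.0175) and was lost under 4 of 8 alternatives, among them leaving out control replicate 2 (−0.28, 0.310). The median difference of all genes was −0.11 in dendritic cells and −0.47 in neutrophils (−0.03 and −0.34 with DESeq2 size factors), and −0.05 to −0.09 in the other 3 classes.

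Gbp6 had another order. Regulatory T cells held 154 and 75.4 CPM in LNP-Sirpa libraries, against 78.7 and 65.5 CPM in controls, and CD8 T cells came next, ahead of phagocytes in both groups. The edgeR difference from phagocytes was log2 1.33 ± 0.30 SE in regulatory T cells (adjusted p = 0.00936) and 0.85 ± 0.20 SE in CD8 T cells (adjusted p = 0.00458), and both held under all 8 alternatives. It was negative in NK cells (−1.05 ± 0.25, edgeR adjusted p = 1.47e-04) and in dendritic cells (−2.15 ± 0.31, 8.67e-06). Gbp6 counts are uncertain: 82.9% of the 100-base stretches of its longest GENCODE vM21 transcript occur in other transcripts, among them those of Gbp10, whose last 500 bases are covered entirely by such stretches, so reads of this length may not tell them apart. Gbp2 and Gbp5 had no such stretch, Gbp7 had 10.2%, shared with Gm43802 and Gbp3, and the remaining members at most 3.81%.

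Gbp7 was lower than in phagocytes in dendritic cells (edgeR log2 −2.04 ± 0.18 SE, adjusted p = 2.58e-09), NK cells (−1.07 ± 0.15, 7.16e-12) and CD8 T cells (−0.61 ± 0.17, 0.0119), and its level in regulatory T cells, at a log2 difference of 0.25 ± 0.14, did not pass (0.158). Gbp3 was lower in dendritic, CD8 T and NK cells (edgeR log2 −0.79 to −1.32), Gbp5 in CD8 T and NK cells (−1.61 and −1.02), and Gbp4 was higher in regulatory T cells (0.64 ± 0.23, 0.0319). Gbp8 and Gbp9 differed from phagocytes past the threshold in none of the 5 classes. Counted over members, 0 were higher and 4 lower in dendritic cells, against 13.7% and 19% of genes; 1 and 4 in CD8 T cells (23.9% and 29.5%); 2 and 1 in regulatory T cells (20.7% and 25.5%); and 0 and 5 in NK cells (20.1% and 26.6%). In neutrophils none of the 8 passed in edgeR in either direction, and none had an unadjusted p under 0.05, where 9.91% and 15.7% of genes were called. The calls for Gbp5 and Gbp6 in NK cells, Gbp3 in NK and dendritic cells, Gbp4 in regulatory T cells and Gbp5 and Gbp7 in CD8 T cells were lost in 1 to 3 of 8 alternatives each, most often with a library left out.

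**Figure D5:**
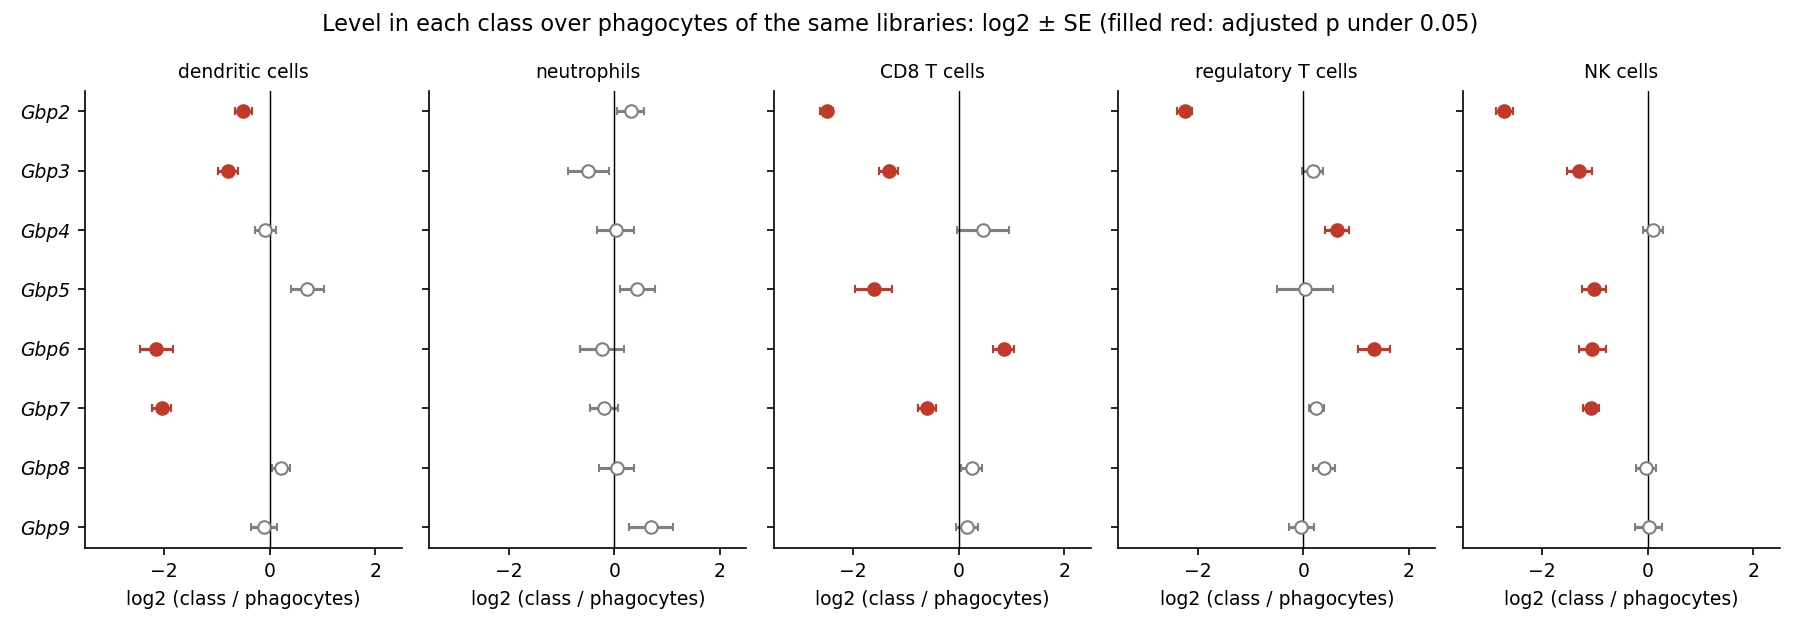
edgeR log2 difference of each member between 5 classes and phagocytes of the same 4 libraries, with its SE; filled red points passed an adjusted p of 0.05. Gbp2 lies between −2.71 and −2.25 in the 3 lymphocyte classes, while Gbp6 lies at 0.85 in CD8 T cells and 1.33 in regulatory T cells.

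Over the 24 sums of 6 immune classes and 4 libraries, which share libraries and depth, the members formed loose groups. As a description of log2(CPM + 1), Gbp4, Gbp8 and Gbp9, neighbours on chromosome 5, had pairwise Pearson r of 0.96 to 0.98. Much of that came from the control neutrophils, where all 3 had no UMI, and r was 0.82 to 0.90 over the 20 sums without neutrophils. Gbp6 and Gbp7, from different chromosomes, had r of 0.80, and Gbp2 and Gbp7 0.27. The genes most like the summed family level among 5893 genes were Zbp1 (r = 0.92), a sensor of Z-form nucleic acids, Slfn8 (0.84), Ly6a (0.84), Ifi209 (0.84) and Ifi47 (0.83), an immunity-related GTPase, with Xaf1, Atrip and Ifi206 next. Over the 20 sums without neutrophils, r was 0.91 for Zbp1, 0.89 for Ly6a, 0.84 for Ifi47 and 0.82 for Slfn8. It was 0.81 for Xaf1, 0.77 for Ifi209 and Atrip and 0.69 for Ifi206, so the order rests in part on neutrophils.

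Other genes of the pathway showed a mixed picture in phagocytes. On the interferon gamma axis, from the cytokine and its receptor to the Irf factors, 2 of 12 genes rose and none fell: Jak2, a kinase of the receptor, had 52.1 and 41.8 CPM in LNP-Sirpa libraries, against 21.4 and 24.2 CPM in controls (edgeR log2 1.17 ± 0.15 SE, adjusted p = 0.0341), and Socs1, a feedback inhibitor of the same receptor, 15.1 and 9.02 CPM, against 3.57 and 4.01 CPM (edgeR log2 1.78 ± 0.24 SE, adjusted p = 0.0369). The list's median was log2 0.65, with 7 unadjusted p under 0.05, a level that 19.45% of all genes reached. Immunity-related GTPases, the small GTPases that act with this family at vacuoles, had none of 6 tested members past the threshold, with a median of log2 1.64 and 6 unadjusted p under 0.05. Inflammasome and pyroptosis genes had none of 10 (median 0.64, 6 unadjusted), genes of ubiquitin-like conjugation in autophagy, which place the family on vacuoles, none of 10 (median 0.04, 1 unadjusted), and prenylation genes, whose enzymes attach the lipid anchor of Gbp2 and Gbp5, none of 6 (median −0.18, 0 unadjusted). Ifng RNA itself overlapped between groups in CD8 T cells, at 819.8 and 760 CPM in LNP-Sirpa libraries, against 826 and 764 CPM in controls. Both LNP-Sirpa libraries were higher in regulatory T cells (50.3 and 75.4, against 40.7 and 43.6 CPM) and in T cells of no further class (328 and 410, against 320 and 181 CPM). Both were lower in NK cells (225 and 201, against 241 and 264 CPM) and in Foxp3-negative CD4 T cells (253 and 824, against 1202 and 841 CPM). The regulatory T and NK changes did not pass (edgeR adjusted p = 0.764 and 0.801). Over all cells Ifng RNA was 133 and 68.0 CPM, against 29.1 and 65.8 CPM, with LNP-Sirpa replicate 2 and control replicate 2 close together. Gated T and NK cells held 4188 of 11402 and 2534 of 4798 Ifng UMIs in LNP-Sirpa libraries, against 845 of 1998 and 1924 of 5976 in controls. The libraries held 538 and 397 gated CD8 T cells, against 60 and 323, and the source of the level over all cells was not tested. Over all cells together, 7 of 8 members had both LNP-Sirpa libraries above both controls (16.2% of genes) and none passed edgeR (0.0111% of 18047 genes called higher), with 7 at an unadjusted p under 0.05 (16.62% of genes); DESeq2 called 7 of 8, against 4.42% of genes, and edgeR with no filter on low counts 2 of 8, against 1.43%.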

How the data were processed

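CD45+ cells from MC38 tumours were captured with the DNBelab C Series droplet kit and sequenced on a DNBSEQ-T7, per the labels' protocols. The deposited values are raw UMI counts, 1 for each gene in each cell; per the file headers, PISA 1.0 made the matrices, and STAR 2.5.1b and GRCm39 are named in the submitters' processing notes. Whether strand was used in counting is not given in the sources used here. The 4 oligo libraries were not analysed here.

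Cells under 500 UMIs or 300 genes, or above 15% mitochondrial UMIs, were left out (40 of 37757). Classes were gated on summed marker UMIs (minimum 6 for phagocytes, 4 dendritic cells, 10 neutrophils, 5 T cells, 3 NK cells, 3 B cells), with cells that carried other classes' markers left out; Cd8a with Cd8b1 or Foxp3 split T cells. Doublets were handled by this exclusion alone. Gate minimums were set after the data were seen, and the members and lists were chosen with earlier results of these data known. Counts were summed per library and class, and a class was tested where each library had at least 20 cells. edgeR 4.0.16 (R 4.3.3) fitted the quasi-likelihood test with TMM scaling and filterByExpr over all genes, LNP-Sirpa against control, with Benjamini-Hochberg adjustment and a threshold of 0.05; class differences and the interaction had the library as a block. SE is the log2 change divided by the square root of F. Spread was estimated with values shared across genes. The smallest p-values, as for Gbp2 in NK cells over phagocytes, therefore do not measure the spread of that gene over its own libraries alone. DESeq2 1.42.0, other scalings, filters, gates, thinning, the replicate block and leaving out each library were alternatives; the scripts were tested on simulated data. Named genes were the 8 members, Gbp2b, Gbp10 and Gbp11, list genes past the threshold in phagocytes, and the 8 genes with the highest Pearson r to the family sum among those with a mean of at least 20 CPM; Igtp, Iigp1, Cxcl9, Sirpa and Ifng levels in other classes were added after their values were seen. Shares have 95% Wilson intervals, and a group without a UMI was given a floor of 3 counts; both cover counting error only. Motifs and windows came from RefSeq (GRCm38.p6) and shared stretches from GENCODE vM21, matched by symbol.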

Additional observations from a re-analysis of the deposited data

Results flagged for a closer look

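The Gbp4 change differed between phagocytes and pooled T and NK cells by a test of the difference itself. Its log2 change in phagocytes minus that in the pool was 1.31 ± 0.25 SE (edgeR adjusted p = 0.0296). The make-up of the pool by class differed between libraries, and its part in this difference was not tested. Gbp4 in phagocytes had 96.1 and 50.9 CPM in LNP-Sirpa libraries, against 13.1 and 23.6 CPM in controls, while T and NK cells had 96.3 and 62.6 CPM, against 42.7 and 45.3 CPM. Both LNP-Sirpa libraries were above both controls in each of the 2 classes. The difference kept its sign in all 8 alternatives, from 0.91 to 1.78, and passed in 4 of them. No group held 4 or more libraries, so single libraries were not screened as outliers.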

How the results depend on the processing

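Counts of the 8 members called higher depended on the setting; the percentage beside each is the share of all genes called higher under it. In phagocytes (0, 1.07%) DESeq2 gave 7 (5.88%), no low-count filter 8 (5.49%), and leaving out 1 library 0 to 5 (0.136% to 4.77%). In dendritic cells (1, 0.277%) no filter gave 3 (0.767%), omitting the cells of most UMIs 3 (0.893%), keeping mixed cells 0 (0.0589%), mature cells alone 0 (0.169%), the replicate block 0 (0.0378%), and leaving out 1 library 0 to 7 (0.321% to 2.72%). In neutrophils (1 of 5 tested, 0.802%) no filter gave 5 of 8 (1.04%), the replicate block 4 of 5 (3.92%) and mixed cells 2 of 8 (0.764%). With mixed cells left out, Gbp4, Gbp5, Gbp8 and Gbp9 had no control UMI there and Gbp2 had 3. These neutrophil counts are therefore no support for a change. In CD8 T cells (0, 0.0802%) no filter gave 2 (1.05%), the replicate block 2 (1.78%), and leaving out 1 library 0 to 3 (0.132% to 2.08%). In regulatory T cells (0, 0.382%) no filter gave 2 (0.617%), doubled marker minimums 1 (0.528%), mixed cells 1 (0.602%), thinned sums 1 (0.486%), and leaving out 1 library 0 to 3 (0.108% to 1.896%). In NK cells (1, 1.07%) DESeq2 gave 0 (0.0445%), thinned sums 0 (0.484%), omitting the cells of most UMIs 0 (0.0619%), mixed cells 2 (1.05%), and leaving out 1 library 0 to 1 (0.363% to 1.796%). Fibroblast-marker cells (6, 0.764%) gave 7 to 8 with 1 library left out (1.41% to 5.86%) and 5 with the replicate block (0.488%). Over all cells (0, 0.0111%) DESeq2 gave 7 (4.42%), no filter 2 (1.43%), and leaving out 1 library 0 to 1 (0% to 3.30%). The interaction (1, 0.806%) gave 0 with DESeq2 size factors (0.540%), doubled minimums (0.0899%) or mixed cells (0%), 3 with no filter (1.20%), and 0 to 5 with 1 library left out (0.657% to 2.55%).

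For differences from phagocytes in either direction, mixed cells gave 1 in neutrophils (main 0) and 1 in regulatory T cells (main 3). Leaving out 1 library gave 3 to 5 in dendritic cells (main 4), 0 in neutrophils, 4 to 5 in CD8 T cells (main 5), 2 to 5 in regulatory T cells (main 3) and 2 to 5 in NK cells (main 5). Differences that passed kept their sign; among those that did not, signs turned, as in NK cells, where 2 members were above phagocytes and 0 without control replicate 1.

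Among treatment changes and the interaction, leaving out 1 library turned signs without LNP-Sirpa replicate 1 and, for the Gbp7 interaction, also without control replicate 1 (−0.20). In CD8 T cells the log2 change ran from −0.15 to 0.66 for Gbp4, −0.065 to 0.70 for Gbp5, −0.093 to 0.90 for Gbp7 and −0.27 to 0.86 for Gbp9. It ran from −0.076 to 0.56 for Gbp7 in regulatory T cells and −0.34 to 0.65 for Gbp5 in NK cells, and the Gbp7 interaction from −0.20 to 0.57, with −0.013 without LNP-Sirpa replicate 1. Gbp3 in NK cells was 0.57 with mixed cells. The cause was not tested. Same-numbered libraries did not deviate together (correlations of −0.03 to 0.07), so the replicate block pairs by number alone; it gave 0 in phagocytes, regulatory T cells and all cells, and 1 in NK cells. Doubled minimums were not run for neutrophils, nor gate alternatives for all cells. With 2 libraries a group and 20 to 24 control neutrophils, precision was set by library spread and depth.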

Other observations

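Foxp3-negative CD4 T cells and B cells were too few to test. Foxp3-negative CD4 T cells (122 and 111 in LNP-Sirpa libraries, 12 and 36 in controls) held 130 and 65 Gbp2 UMIs, against 2 and 0. B cells (8 and 6, against 14 and 15 cells) held 6 and 1 Gbp2 UMIs, against 3 and 3, so the groups overlapped, and no UMI of Gbp5, Gbp8 or Gbp9.

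Family genes outside the 8 had few counts in phagocytes. Gbp2b, between Gbp3 and Gbp2 on chromosome 3, had 15.3 and 3.44 CPM in LNP-Sirpa libraries, against 0.374 and 2.02 CPM in controls (edgeR log2 2.98 ± 0.99 SE, adjusted p = 0.209). Gbp10 had 4.51 and 3.37 CPM, against 1.10 and 1.79 CPM (edgeR log2 1.56 ± 0.32 SE, adjusted p = 0.0727), and Gbp11 had no UMI in any library. The Gbp10 level is uncertain. Of the 100-base stretches of its transcript, 70.9% occur in other transcripts, and in its last 500 bases all do.

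Immunity-related GTPases had calls outside phagocytes, and differences between classes were not tested for them. In cells with fibroblast markers 5 of 6 rose, against 0.764% of all genes called higher, with Igtp at the smallest p (edgeR log2 2.36, adjusted p = 0.00131). Iigp1 was the 1 that rose of 2 tested in NK cells (edgeR log2 3.68 ± 0.61 SE, adjusted p = 1.26e-04; 1.07% of genes called higher) and of 3 tested in regulatory T cells (1.18 ± 0.26, 0.0439; 0.382%).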
